A study of Homo sapiens with 24 samples.

Results

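The libraries compared here show the net state of HK-2 cells kept for 24 h in hypoxia with an activator of soluble guanylate cyclase, set against cells kept in normoxia with solvent. They were chosen by their labels alone: 3 libraries of hypoxia with BAY 60-2770 and 5 normoxic solvent controls, 8 of the 24 libraries of the series. HK-2 is an immortalised line of human proximal tubular epithelium, so every library comes from 1 line. After overnight serum deprivation, cells received BAY 60-2770 (called BAY below) or solvent and were placed in 0.3% oxygen or in normoxia. The labels give 1 mM BAY, a doubtful figure for a compound of this class, and no value in the counts bears on it. Controls received the solvents of all agents used in the series, 0.0001% DMSO and 4 µM HCl with 0.0001% BSA. Each exposure was also given on its own, in 3 hypoxic libraries with solvent and 3 normoxic libraries with BAY, which serve here to say whether a net change was present under either exposure alone. No group described here received TGF-β1. The replicates are called biological, with no word on how they were kept apart, and the tests therefore see only the variation among these cultures, which may be technical.

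Soluble guanylate cyclase makes cyclic GMP, normally when nitric oxide binds its haem. Activators such as BAY 60-2770 act on the enzyme when that haem is oxidised or lost. Cyclic GMP acts through protein kinase G, through ion channels and through phosphodiesterases, which also tie it to cyclic AMP. Low oxygen acts mainly through the hypoxia-inducible factors (HIFs), which are degraded while oxygen is present and, once stable, raise genes of glucose uptake, glycolysis, angiogenesis and matrix processing. The proximal tubule depends on mitochondrial respiration and is known for its sensitivity to low oxygen.

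Totals ran from 78862528 to 95980883 counts in hypoxia with BAY and from 87762394 to 99779390 in the normoxic solvent controls. Mitochondrially encoded genes made up 3.59% ± 0.0635 of the counts in hypoxia with BAY (SD, n = 3) and 7.29% ± 0.174 in the normoxic controls (SD, n = 5). Over the 14 libraries of the 4 groups, principal component 1 (41.9% of the variance) separated hypoxia from normoxia, and component 2 (16.4%) separated BAY from solvent within each oxygen level. On components 3 and 4, with 6.29% and 4.74%, controls 3 and 4 stood apart from controls 1, 2 and 5. Values with each subset are given for some of the results that this touches. Of the proximal tubule markers, the transcription factor PAX8 averaged 626 CPM (counts scaled to a common library size by TMM) in hypoxia with BAY and 264 CPM in the controls, and the peptidase DPP4 averaged 672 CPM in hypoxia with BAY and 647 CPM in the controls. The endocytic receptors LRP2 and CUBN were under 1 CPM in both groups, and the transporters SLC22A6 and SLC22A8 and the water channel AQP1 did not pass the filter on low counts. The tubular label therefore rests on markers such as PAX8 and DPP4. Of 10 fibroblast markers 5 passed it, and their sum ran from 229 to 249 CPM in hypoxia with BAY and from 112 to 141 CPM in the controls. LUM carried most of that sum, while COL1A2, COL3A1 and PDGFRA did not pass. Of 10 endothelial markers 3 passed, with sums of 46.3 to 48.7 CPM in hypoxia with BAY and 32.6 to 43.3 CPM in the controls, and PECAM1, CDH5 and VWF were not among them. Of 10 leukocyte markers 5 passed, with sums of 388 to 444 CPM in hypoxia with BAY and 394 to 431 CPM in the controls, without PTPRC and CD3E. The part of these markers in the results was not tested.

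Of 21316 genes tested, 14546 (68.2%) were called in hypoxia with BAY against the normoxic controls, 6993 higher (32.8%) and 7553 lower (35.4%). Calls rest on edgeR's quasi-likelihood test with Benjamini-Hochberg adjustment over all tested genes and a threshold of 0.05, and every adjusted p given here is from that test unless another tool is named. The libraries of the 2 groups did not overlap for 13744 genes (64.5%). At least 2-fold changes were called for 2058 genes higher (9.65%) and 2619 lower (12.3%). With controls 1, 2 and 5 alone these were 2331 higher and 2360 lower, and with controls 3 and 4 alone 2153 and 2394. Hypoxia with solvent against the same controls gave 12960 called genes (60.8%), of which 2858 changed at least 2-fold (13.4%). BAY in normoxia gave 9362 (43.9%) and 1249 (5.86%). BAY within hypoxia gave 8087 (37.9%) and hypoxia within BAY 13001 (61.0%). The 3 comparisons against the normoxic solvent controls share all 5 of them, so their values stand side by side below and are not independent. The median log2 fold change of all tested genes was -0.03 in hypoxia with BAY, -0.02 in hypoxia with solvent and 0.00 with BAY in normoxia. With 68.2% of genes called, a call alone sets few genes apart, and sizes are given throughout. Every count of risen and fallen members of a gene list below stands beside 32.8% higher and 35.4% lower over all genes.

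**Figure D1:**
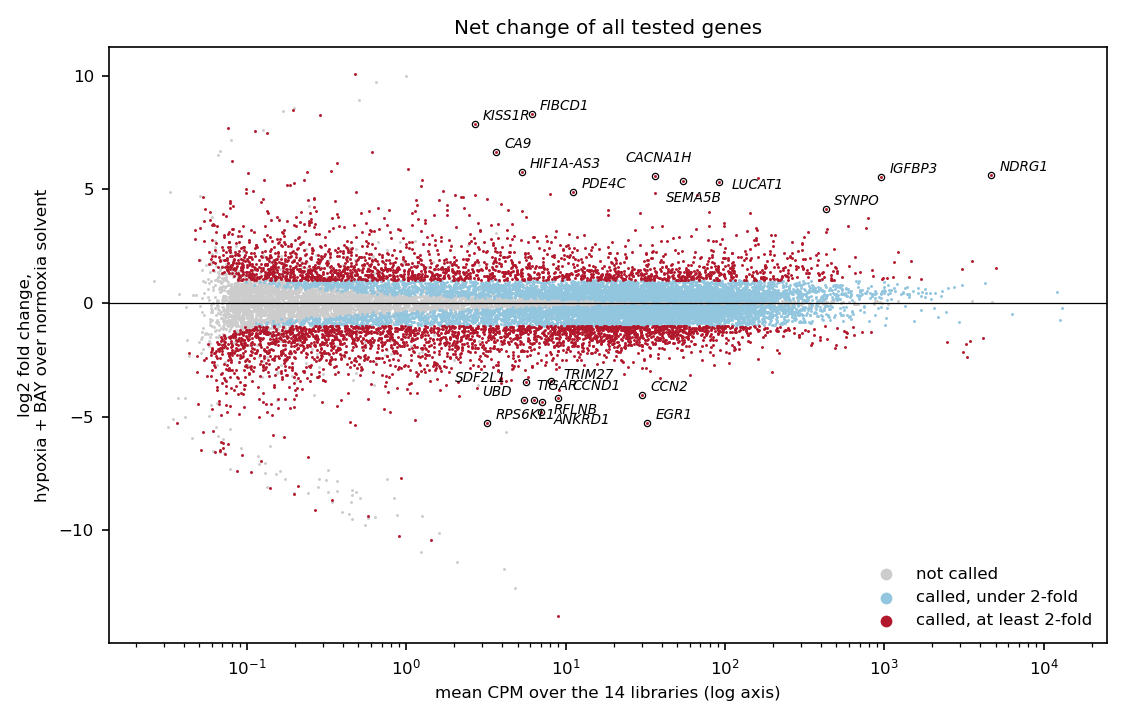
Net change of every tested gene. The horizontal axis is the mean CPM over the 14 libraries (log axis) and the vertical axis the log2 fold change of hypoxia with BAY over normoxic solvent. Red points are called and changed at least 2-fold, light blue points are called below that, and grey points are not called. The circled genes are IGFBP3, SYNPO and the 10 largest rises and 10 largest falls that reached 5 CPM in one of the groups and whose libraries did not overlap. More extreme points without a name fell short of that level, overlapped, or carry no gene name.

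Whether a net change equals the sum of both single changes was tested by the interaction, the log2 change with BAY in hypoxia minus that in normoxia. It is 0 where the changes add on the log2 scale. The interaction was called for 3571 genes (16.8%), with 1882 above 0 (8.83%) and 1689 below 0 (7.92%). Every count of called interactions in a gene list below stands beside these shares. Those list counts rest on all controls together and were not repeated with each control subset.

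IGFBP3, SYNPO, NDRG1 and CACNA1H represent different ways in which the exposures met. IGFBP3 (chromosome 7, 45912245 to 45921874, GENCODE 29 on GRCh38) encodes a carrier protein of insulin-like growth factors. Its level was 2729, 2882 and 3537 CPM in hypoxia with BAY, 648, 599 and 774 CPM in hypoxia with solvent, 626, 608 and 600 CPM with BAY in normoxia, and 68.2, 66.1, 63.9, 63.5 and 66.0 CPM in the normoxic controls. The group with both exposures lay above every other library, and the groups with 1 exposure overlapped each other. IGFBP3 rose 46.5-fold net, a log2 fold change of 5.54 ± 0.0899 (SE, adjusted p = 1.44e-15). Hypoxia alone raised it by 3.36 and BAY alone by 3.22, and the interaction of -1.04 ± 0.123 (SE, adjusted p = 5.87e-05) puts the net rise below their sum.

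SYNPO (chromosome 5, 150601080 to 150659220) encodes synaptopodin, an actin-associated protein best known from podocytes. It was read at 1264, 1259 and 1389 CPM in hypoxia with BAY, 462, 459 and 497 CPM in hypoxia with solvent, 103, 108 and 103 CPM with BAY in normoxia, and 84.5, 83.9, 64.7, 65.3 and 77.8 CPM in the normoxic controls. No 2 of the 4 groups overlapped. The net log2 fold change was 4.12 ± 0.0855 (SE, adjusted p = 2.46e-14), against 2.65 in hypoxia alone and 0.48 with BAY alone. Here the interaction was 0.99 ± 0.126 (SE, adjusted p = 0.000124), so the net rise exceeded the sum. The podocyte genes NPHS1 and WT1 did not pass the filter, and PODXL fell to 2.03 CPM in hypoxia with BAY, against 7.34 CPM in the controls.

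NDRG1 (chromosome 8, 133237171 to 133302022), a stress-responsive gene and a standard marker of HIF activity, had 12204, 12201 and 12478 CPM in hypoxia with BAY. It had 8563, 8326 and 9240 CPM in hypoxia with solvent, 398, 401 and 382 CPM with BAY in normoxia, and 297, 285, 196, 193 and 279 CPM in the normoxic controls. All 4 groups were apart. The net log2 fold change was 5.62 ± 0.142 (SE, adjusted p = 8.78e-13), against 5.12 in hypoxia alone. CACNA1H (chromosome 16, 1153121 to 1221772), the pore subunit of a T-type calcium channel, showed the reverse order of the single exposures. It had 115, 125 and 108 CPM in hypoxia with BAY, 8.03, 7.55 and 7.84 CPM in hypoxia with solvent, 41.3, 42.1 and 39.0 CPM with BAY in normoxia, and 2.93, 2.79, 2.17, 1.74 and 2.48 CPM in the normoxic controls. Its net log2 fold change was 5.58 ± 0.110 (SE, adjusted p = 2.96e-14), against 1.69 in hypoxia alone and 4.07 with BAY alone. The interaction of NDRG1 was -0.16 ± 0.194 (SE, adjusted p = 0.645) and that of CACNA1H -0.18 ± 0.158 (SE, adjusted p = 0.493). Neither was called with all 5 controls, but both were called with controls 3 and 4 alone, at -0.51 (adjusted p = 0.000243) for NDRG1 and -0.48 (adjusted p = 0.0142) for CACNA1H. With controls 1, 2 and 5 alone they were 0.08 and 0.04, so whether these changes add depends on the control subset.

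**Figure D2:**
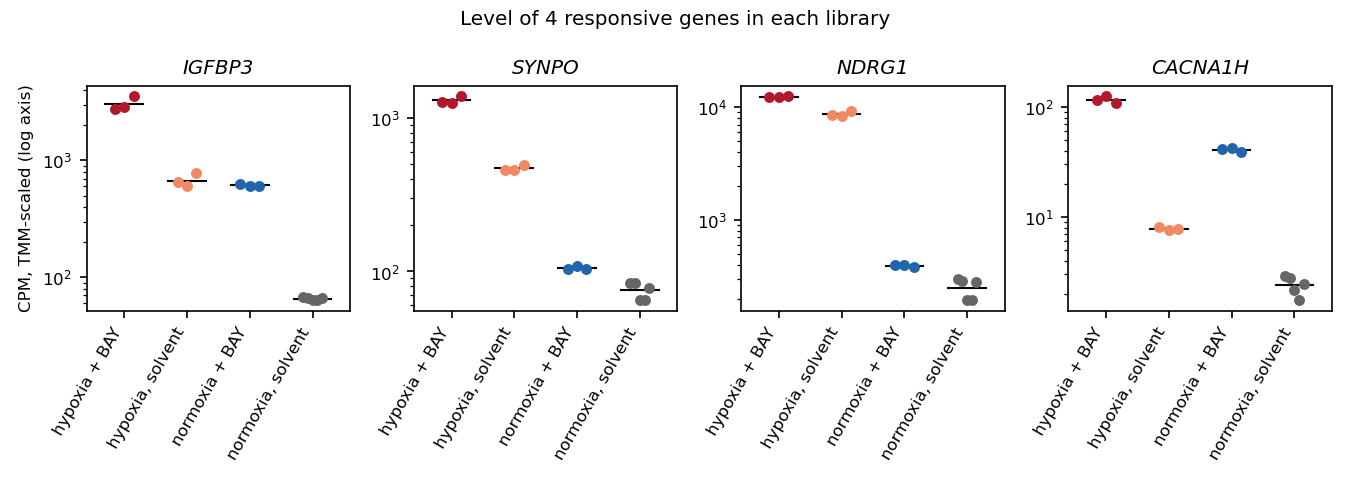
CPM of IGFBP3, SYNPO, NDRG1 and CACNA1H in each of the 14 libraries, with a log axis of its own for each gene. Points are libraries and black bars are group means. The 3 libraries of hypoxia with BAY are the highest for all 4 genes; among the single exposures hypoxia is higher for SYNPO and NDRG1, and BAY is higher for CACNA1H.

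Several of the 10 largest rises started from very low levels in the controls. FIBCD1, which encodes an acetyl-group-binding endocytic receptor, had 28.7, 24.5 and 29.5 CPM in hypoxia with BAY, and 0.0437 to 0.136 CPM over the 5 controls. Hypoxia with solvent averaged 0.517 ± 0.0135 CPM and BAY in normoxia 0.273 ± 0.0895 CPM (SD, n = 3 each), so the combination stood far above either exposure alone. Its net log2 fold change was 8.32 ± 0.203 (SE, adjusted p = 2.79e-14), with an interaction of 4.06 ± 0.355 (SE, adjusted p = 2.90e-06). KISS1R, the receptor of kisspeptin, had 3.97, 4.66 and 7.10 CPM in hypoxia with BAY and at most 0.0335 CPM in the controls, with 1 control at 0. It was also present in hypoxia with solvent, at 7.19 ± 0.0566 CPM (SD, n = 3), and its size against controls this low is uncertain. SEMA5B, a transmembrane semaphorin, rose to 174 ± 7.91 CPM in hypoxia with BAY (SD, n = 3), against 4.18 ± 0.742 CPM in the controls (SD, n = 5). LUCAT1, a long noncoding RNA, rose to 271 ± 23.9 CPM in hypoxia with BAY (SD, n = 3), against 6.84 ± 1.26 CPM in the controls (SD, n = 5). Both genes rose with each single exposure, and both had an interaction below 0, -0.78 (adjusted p = 0.00264) for SEMA5B and -0.85 (adjusted p = 0.00620) for LUCAT1. PDE4C, a phosphodiesterase of cyclic AMP, had 24.6, 23.7 and 23.5 CPM in hypoxia with BAY and 0.693 to 0.982 CPM in the controls, and its rise was already present in hypoxia with solvent at 25.2 ± 2.20 CPM (SD, n = 3). HIF1A-AS3 rose to 12.6 ± 2.07 CPM in hypoxia with BAY (SD, n = 3), against 0.229 ± 0.0712 CPM in the controls (SD, n = 5). It is antisense to HIF1A, and use of strand in the counting is not given in the sources used here, so its reads may not be separable from those of its partner.

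ANKRD1, CCN2 and EGR1 were among the 10 largest falls. ANKRD1, a target of the transcriptional coactivator YAP, fell to 0.579, 0.515 and 0.702 CPM in hypoxia with BAY, against 15.4, 14.9, 18.4, 18.5 and 15.4 CPM in the controls. The groups were far apart, at a net log2 fold change of -4.78 ± 0.137 (SE, adjusted p = 1.02e-13). BAY in normoxia had it at 0.499 ± 0.0491 CPM (SD, n = 3), so the combined level was close to that of BAY alone, while hypoxia with solvent had 4.04 ± 0.391 CPM (SD, n = 3). CCN2, a secreted matricellular protein induced by YAP and TGF-β, fell to 4.36, 5.12 and 3.57 CPM in hypoxia with BAY, against 103, 96.7, 33.5, 33.5 and 92.4 CPM in the controls. EGR1, an immediate-early transcription factor, fell to 2.37, 2.38 and 1.76 CPM in hypoxia with BAY, against 145, 130, 7.60, 7.01 and 130 CPM in the controls. For both genes the controls split into the same subsets, controls 3 and 4 being the low ones, and the size of the fall follows that split. With controls 3 and 4 alone the log2 fold change was -2.89 for CCN2 (adjusted p = 2.49e-11) and -1.70 for EGR1 (adjusted p = 1.40e-07), against -4.05 (adjusted p = 1.59e-05) and -5.27 (adjusted p = 0.00253) with all 5. EGR1 was not called by limma voom (-4.28, adjusted p = 0.156).

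RPS6KL1 and CCND1 were also among the large falls. RPS6KL1, which encodes a kinase-like protein, averaged 0.157 ± 0.0476 CPM in hypoxia with BAY, 0.725 ± 0.0721 CPM in hypoxia with solvent and 3.87 ± 0.265 CPM with BAY in normoxia (SD, n = 3 each), and 6.11 ± 0.910 CPM in the controls (SD, n = 5). CCND1, cyclin D1, the cyclin of the G1 phase, had 0.680, 1.31 and 1.06 CPM in hypoxia with BAY, against 20.0, 19.9, 15.7, 16.2 and 19.7 CPM in the controls. Hypoxia with solvent (4.88 ± 0.173 CPM) and BAY in normoxia (5.09 ± 0.201 CPM, SD, n = 3 each) had lowered CCND1 to like levels, and the interaction was not called (-0.43 ± 0.214, SE, adjusted p = 0.198). SDF2L1, a component of the endoplasmic reticulum chaperone machinery, fell to 0.931 ± 0.0720 CPM in hypoxia with BAY (SD, n = 3), against 10.3 ± 0.690 CPM in the controls (SD, n = 5). TIGAR, a p53-induced regulator of glycolysis, fell to 0.612 ± 0.374 CPM in hypoxia with BAY (SD, n = 3), against 11.9 ± 0.652 CPM in the controls (SD, n = 5). Exons of CCND1 overlap those of LTO1, exons of UBD those of GABBR1 and exons of TIGAR those of an unnamed gene, so reads may be shared. RFLNB, an actin-regulating refilin, was at 0.00, 0.00 and 1.62 CPM in hypoxia with BAY and 8.98 to 13.2 CPM in the controls. UBD, a ubiquitin-like protein induced by inflammation, was at 0.00, 0.731 and 0.983 CPM in hypoxia with BAY and 9.05 to 12.3 CPM in the controls. Both were called (adjusted p = 0.00200 and 0.000164), but with libraries at 0 their fitted size has no firm bound. The log2 fold change of RFLNB was -4.35 with all libraries and -12.99 without replicate 3 of hypoxia with BAY. TRIM27 was called at -3.42 ± 1.21 (SE, adjusted p = 0.0270) on uneven libraries, with 2.21, 0.839 and 0.728 CPM in hypoxia with BAY and 7.47, 8.75, 2.93, 8.31 and 40.9 CPM in the controls. Its call was lost without control 5 (-2.42, adjusted p = 0.0535), without replicate 2 (-3.20, adjusted p = 0.0857) or 3 (-3.14, adjusted p = 0.0887) of hypoxia with BAY, with controls 3 and 4 alone (-2.09, adjusted p = 0.177), with the replicate number as a block (-2.61, adjusted p = 0.0556) and in limma voom (-2.98, adjusted p = 0.150). UBD and TRIM27 lie in the major histocompatibility region, where alternate haplotypes can divide reads.

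In the list of HIF targets all 33 tested genes of 34 rose, 31 of them at least 2-fold, with a median log2 fold change of 2.84 against -0.03 over all genes. The same genes had a median of 2.69 in hypoxia alone and -0.33 with BAY alone. CA9, carbonic anhydrase IX, which buffers acid at the cell surface, had 7.71, 8.30 and 6.61 CPM in hypoxia with BAY and 0.0433 to 0.109 CPM in the controls. Its exons overlap ARHGEF39. ADM, the vasodilator peptide adrenomedullin, averaged 167 CPM in hypoxia with BAY and 6.30 CPM in the controls. VEGFA, the principal angiogenic factor, averaged 315 CPM in hypoxia with BAY, 254 CPM in hypoxia with solvent, 13.2 CPM with BAY in normoxia and 34.9 CPM in the controls. BAY thus lowered VEGFA in normoxia (-1.41) and raised it slightly in hypoxia (0.31, adjusted p = 0.0254), with an interaction of 1.71 (adjusted p = 3.82e-06). The glucose transporter SLC2A1 behaved likewise, with 1758 CPM in hypoxia with BAY, 1439 CPM in hypoxia with solvent, 99.7 CPM with BAY in normoxia and 177 CPM in the controls, and an interaction of 1.11. The interaction was called above 0 for 16 of the 33 genes and below 0 for 2, beside the 8.83% and 7.92% of all genes. CA12, another membrane carbonic anhydrase, averaged 61.7 CPM in hypoxia with BAY, 18.2 CPM in hypoxia with solvent, 13.9 CPM with BAY in normoxia and 23.3 CPM in the controls, a fall with BAY alone (-0.75, adjusted p = 0.00200) and a rise with both exposures (1.41, adjusted p = 2.20e-06). Hypoxia alone did not pass the test for CA12 (-0.35, adjusted p = 0.0652). DDIT4, an inhibitor of mTOR signalling, averaged 1802 CPM in hypoxia with BAY, 1207 CPM in hypoxia with solvent, 459 CPM with BAY in normoxia and 134 CPM in the controls, with an interaction of -1.20.

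The core of the HIF binding sequence, ACGTG on either strand, was looked for in RefSeq promoter windows of 300 bases (GRCh38.p14), 250 before and 50 after each gene's start. It was present for 14 of the 25 listed HIF targets with an entry (56.0%), for 3279 of 12622 tested genes with one (26.0%), for 27.1% of the genes at least 2-fold higher and for 22.9% of those at least 2-fold lower. It was also present for 7 of the 17 listed YAP and TEAD targets with an entry (41.2%), for 2 of the 7 with an entry among the 10 largest rises (28.6%) and for 3 of the 7 with one among the 10 largest falls (42.9%). A match describes the letters only and is no sign of binding. The 250 bases before the start of CA9, of the collagen-crosslinking oxidase LOX and of the glycolytic enolase ENO2 are shown because these genes had the largest rises of the HIF, matrix and glycolysis lists. Capitals mark ACGTG, or CACGT where it lies on the other strand. The match in CA9 begins 18 bases before the start, those in LOX 185, 116, 98 and 42 bases before it, and that in ENO2 118 bases before it. They read 5′ to 3′ on the gene's strand, from chr9:35673678-35673927 (plus), chr5:122078260-122078509 (minus) and chr12:6914330-6914579 (plus).
CA9: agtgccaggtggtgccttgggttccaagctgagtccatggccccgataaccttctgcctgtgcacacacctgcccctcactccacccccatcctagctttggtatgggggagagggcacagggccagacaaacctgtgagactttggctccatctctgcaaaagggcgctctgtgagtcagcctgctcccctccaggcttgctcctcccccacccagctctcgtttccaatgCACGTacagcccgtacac
LOX: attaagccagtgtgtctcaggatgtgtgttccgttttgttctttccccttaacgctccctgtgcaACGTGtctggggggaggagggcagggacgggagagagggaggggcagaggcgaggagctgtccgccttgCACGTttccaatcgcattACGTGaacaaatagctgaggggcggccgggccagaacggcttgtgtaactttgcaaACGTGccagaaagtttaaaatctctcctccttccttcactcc
ENO2: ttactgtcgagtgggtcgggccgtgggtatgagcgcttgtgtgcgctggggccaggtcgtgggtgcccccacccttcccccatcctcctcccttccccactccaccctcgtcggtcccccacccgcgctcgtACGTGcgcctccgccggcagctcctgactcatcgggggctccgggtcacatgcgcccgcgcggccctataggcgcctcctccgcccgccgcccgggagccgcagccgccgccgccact

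Glycolysis changed with the HIF targets. Of 16 tested enzymes and transporters, 15 rose, 11 of them at least 2-fold, and none fell, with a median of 1.51 against 1.28 in hypoxia alone and -0.51 with BAY alone. LDHA, lactate dehydrogenase A, is also on this list, but its symbol was not found among the counted genes and it was not tested. ENO2, whose promoter is shown above, had 896, 886 and 1002 CPM in hypoxia with BAY and 166, 165, 199, 199 and 168 CPM in the controls, and the groups did not overlap. ALDOA, the aldolase of this pathway, had 2619, 2651 and 2694 CPM in hypoxia with BAY and 772, 752, 680, 673 and 782 CPM in the controls, again without overlap. ENO2 gained 2.37 ± 0.0725 and ALDOA 1.86 ± 0.0504 on the log2 scale (SE, adjusted p = 4.05e-13 and 5.79e-14). HK2, the inducible hexokinase, averaged 191 CPM in hypoxia with BAY, 198 CPM in hypoxia with solvent, 29.3 CPM with BAY in normoxia and 65.1 CPM in the controls. PKM and PGAM1, late steps of the pathway, rose by 0.17 and 0.23 only. For 9 of the 16 genes the interaction was called above 0, and for none below 0, beside 8.83% and 7.92% of all genes.

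All 13 protein-coding genes of the mitochondrial genome fell, 9 of them at least 2-fold, with a median of -1.70 against -1.52 in hypoxia alone and -0.09 with BAY alone. MT-CO3, a subunit of cytochrome oxidase, had 957, 1049 and 885 CPM in hypoxia with BAY and 4988, 4973, 5069, 5211 and 5247 CPM in the controls. MT-ND2, a subunit of complex I, averaged 1070 ± 141 CPM in hypoxia with BAY (SD, n = 3) against 4842 ± 207 CPM in the controls (SD, n = 5). These genes are also the share of mitochondrial counts given above, and MT-CO3 shares exon sequence with MT-ATP6. In bulk libraries, fewer mitochondria and fewer transcripts per mitochondrion cannot be told apart. Nuclear genes of the respiratory chain moved less: 19 of 31 fell and 6 rose, with a median of -0.21, beside 35.4% lower and 32.8% higher over all genes. ATP5MC1, a subunit of the ATP synthase ring, fell by 1.06 on the log2 scale to 11.7 ± 1.08 CPM in hypoxia with BAY (SD, n = 3), against 24.3 ± 0.896 CPM in the controls (SD, n = 5). NDUFA4L2, which HIF raises in many other cells, stood at 0.158 CPM in hypoxia with BAY and 0.550 CPM in the controls.

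In the citric acid cycle and pyruvate entry, 12 of 21 genes fell and 6 rose, with a median of -0.17. All 4 pyruvate dehydrogenase kinases, which switch off entry of pyruvate into the cycle, were among the 6. PDK1, the HIF-induced kinase, had 122, 128 and 141 CPM in hypoxia with BAY and 35.2 to 37.1 CPM in the controls, with 152 ± 2.81 CPM in hypoxia with solvent and 21.9 ± 0.742 CPM with BAY in normoxia (SD, n = 3 each). PDK4, the kinase of fasting and cyclic AMP signals, had 46.1, 50.2 and 34.9 CPM in hypoxia with BAY, 19.5, 18.9 and 16.0 CPM in hypoxia with solvent, 210, 206 and 213 CPM with BAY in normoxia, and 15.4, 15.2, 8.31, 8.22 and 16.6 CPM in the controls. BAY raised PDK4 in both oxygen levels but far less in hypoxia, with an interaction of -2.77 ± 0.350 (SE, adjusted p = 0.000399). The net rise was 1.78 ± 0.231 (SE, adjusted p = 3.33e-05), and 2.46 with controls 3 and 4 alone. IDH3A, a catalytic subunit of isocitrate dehydrogenase, fell by 1.54 on the log2 scale, to 12.0 CPM in hypoxia with BAY against 34.8 CPM in the controls.

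Cholesterol synthesis fell further than with either exposure alone. Of 24 genes, 21 fell and 1 rose, with a median of -0.74 against -0.16 in hypoxia alone and -0.27 with BAY alone. HMGCS1, which makes the precursor of mevalonate, had 82.5, 78.2 and 80.8 CPM in hypoxia with BAY, 133, 142 and 129 CPM in hypoxia with solvent, 197, 198 and 203 CPM with BAY in normoxia, and 331, 328, 354, 360 and 339 CPM in the controls. No 2 groups overlapped, and the net change of -2.09 ± 0.0438 (SE, adjusted p = 3.88e-15) was the sum of the single changes within its error, with an interaction of 0.04 ± 0.0601 (SE, adjusted p = 0.741). SQLE, squalene epoxidase, an oxygen-using enzyme, averaged 51.0 ± 2.96 CPM in hypoxia with BAY (SD, n = 3) and 178 ± 2.94 CPM in the controls (SD, n = 5), beyond the sum at an interaction of -0.42 (adjusted p = 7.89e-05). In 9 of the 24 genes the interaction was called below 0, and in none above 0, beside 7.92% and 8.83% of all genes.

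Cytosolic ribosomal protein genes rose by small amounts. Of 33 tested, 32 rose, none fell and RPS9 was not called at -0.61, with a median of 0.43, against 0.56 in hypoxia alone and -0.10 with BAY alone. None reached 2-fold, and no interaction was called. RPS16 had the largest rise, to 982 ± 15.2 CPM in hypoxia with BAY (SD, n = 3) against 506 ± 35.0 CPM in the controls (SD, n = 5), and RPL11 had 989 ± 6.71 CPM in hypoxia with BAY (SD, n = 3) against 634 ± 28.8 CPM in the controls (SD, n = 5). Ribosomal protein genes have many processed pseudogenes, and reads may be divided among them.

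Genes of DNA replication fell, with 25 of 31 lower, 9 of them at least 2-fold, and 3 higher. The median was -0.76, against -0.96 in hypoxia alone and 0.16 with BAY alone. PCNA, the sliding clamp of DNA polymerase, had 63.3, 75.7 and 56.7 CPM in hypoxia with BAY, 65.8, 72.5 and 73.5 CPM in hypoxia with solvent, 252, 236 and 238 CPM with BAY in normoxia, and 243, 235, 258, 258 and 256 CPM in the controls. The hypoxic groups overlapped, as did the normoxic ones, so the net fall of PCNA was that of hypoxia. UHRF1, which maintains DNA methylation at replication, averaged 19.5 ± 3.51 CPM in hypoxia with BAY (SD, n = 3) against 82.1 ± 2.91 CPM in the controls (SD, n = 5). CDT1, the licensing factor, went the other way, to 174 CPM in hypoxia with BAY against 67.8 CPM in the controls. Mitotic genes moved less, with 7 of 23 higher and 9 lower, beside 32.8% higher and 35.4% lower over all genes. Their median was -0.04, and none reached 2-fold. Only 5 were lower without replicate 1 of hypoxia with BAY, and likewise 5 with controls 3 and 4 alone. MKI67, the proliferation antigen, fell by 0.54 on the log2 scale and CENPE, a kinetochore motor, by 0.74, while TOP2A, the topoisomerase of dividing cells, rose by 0.40.

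**Figure D3:**
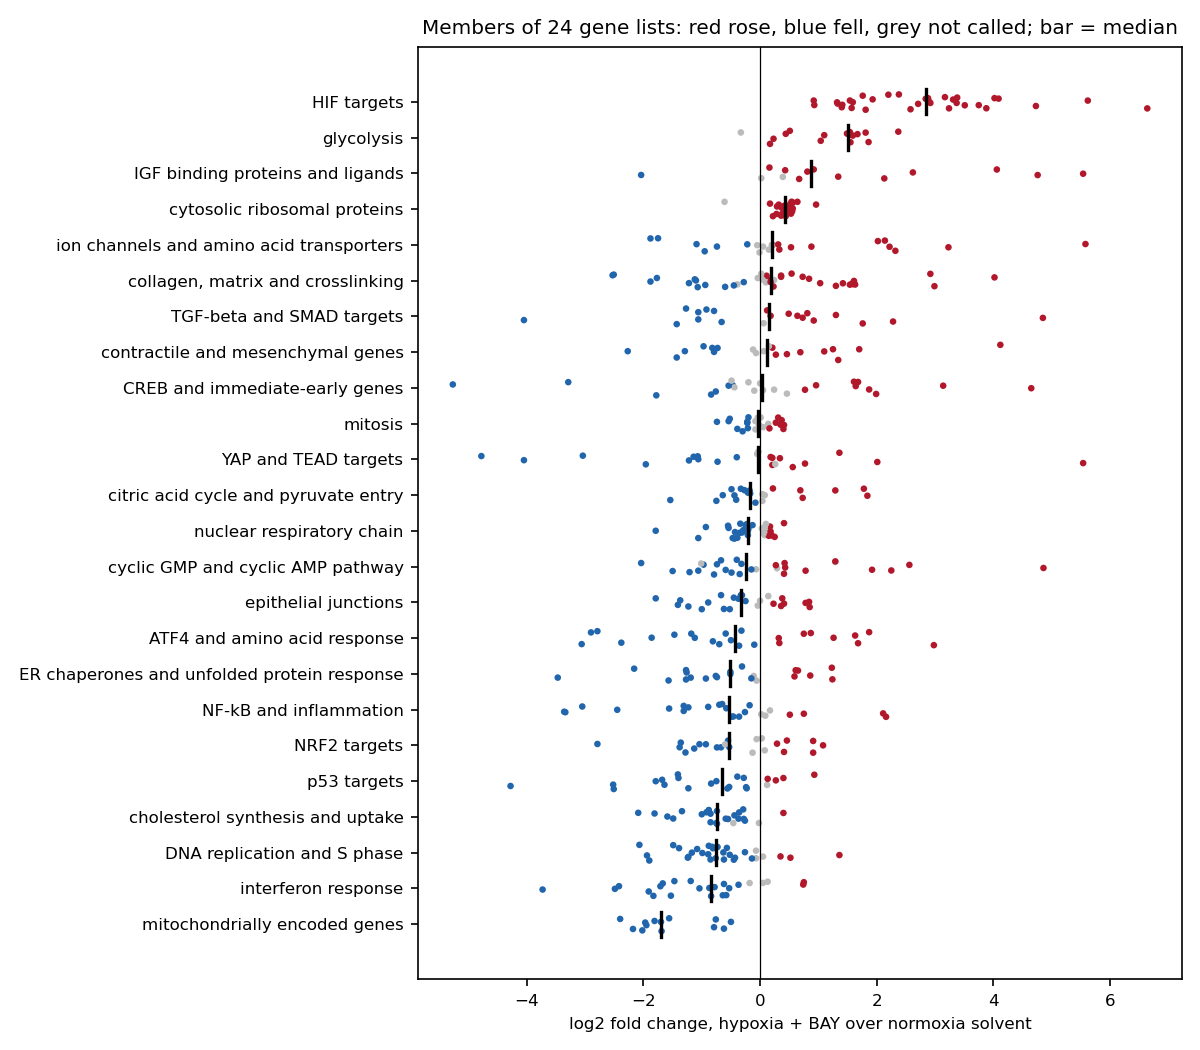
Log2 fold change of hypoxia with BAY over normoxic solvent for every tested member of 24 gene lists, ordered by the list median (black bar). Red members rose, blue members fell and grey members were not called. HIF targets and glycolysis lie to the right with medians of 2.84 and 1.51, mitochondrially encoded genes to the left with -1.70, and most other lists hold members on both sides.

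Chaperones of the endoplasmic reticulum fell for the most part: 14 of 22 genes were lower, 6 higher, and the median was -0.51. HSPA5, the main luminal chaperone, fell to 226 CPM in hypoxia with BAY, against 669 CPM in the controls, and CRELD2, a calcium-binding chaperone gene, to 5.29 ± 0.217 CPM in hypoxia with BAY (SD, n = 3) against 23.6 ± 0.464 CPM in the controls (SD, n = 5). The members that rose were not chaperones of the lumen alone: they included the stress sensor kinase ERN1 (48.1 CPM in hypoxia with BAY against 20.5 CPM in the controls) and the transcription factor CREB3L2 (83.6 CPM in hypoxia with BAY against 35.4 CPM in the controls). In the ATF4 and amino acid response, 15 of 24 genes fell and 9 rose. Enzymes and transporters that ATF4 induces were among the falls, such as CHAC1, a glutathione-degrading enzyme, at 0.404 ± 0.0606 CPM in hypoxia with BAY (SD, n = 3) against 3.37 ± 0.820 CPM in the controls (SD, n = 5). ASNS, asparagine synthetase, averaged 3.97 CPM in hypoxia with BAY against 20.6 CPM in the controls. SLC7A5, the large neutral amino acid transporter, was the largest rise. It had 567, 584 and 639 CPM in hypoxia with BAY, 162, 163 and 173 CPM in hypoxia with solvent, 68.3, 68.4 and 71.0 CPM with BAY in normoxia, and 77.4, 75.9, 74.5, 74.4 and 76.7 CPM in the controls. BAY alone lowered it slightly while BAY in hypoxia raised it, with an interaction of 1.98 ± 0.0608 (SE, adjusted p = 5.35e-11). ATF3, a stress-induced transcription factor, averaged 46.6 CPM in hypoxia with BAY, 8.34 CPM in hypoxia with solvent, 15.1 CPM with BAY in normoxia and 14.6 CPM in the controls, of which controls 3 and 4 had 9.16 and 9.09 CPM and the others 17.9 to 18.4 CPM.

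Other amino acid carriers rose as well. In the list of ion channels and amino acid transporters 11 of 22 rose and 6 fell, and the interaction was called above 0 for 10 and below 0 for 2. SLC6A6, the taurine transporter, had 444, 417 and 437 CPM in hypoxia with BAY, 150, 147 and 147 CPM in hypoxia with solvent, 79.4, 82.9 and 84.6 CPM with BAY in normoxia, and 48.4, 49.0, 44.0, 43.1 and 46.6 CPM in the controls, a net log2 fold change of 3.23 ± 0.0434 (SE, adjusted p = 8.16e-17). The cationic amino acid transporter SLC7A2 averaged 150 CPM in hypoxia with BAY and 32.1 CPM in the controls, with 34.3 CPM in hypoxia with solvent. The background potassium channel KCNK3 averaged 181 CPM in hypoxia with BAY and 36.1 CPM in the controls, where controls 3 and 4 had 27.5 and 25.0 CPM and the others 41.1 to 44.0 CPM. SLC7A6, another amino acid exchanger, fell to 24.3 CPM in hypoxia with BAY, against 89.4 CPM in the controls.

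Interferon-response genes were mostly lower, with 19 of 24 fallen, 11 of them at least 2-fold, and 2 risen, at a median of -0.85 against -0.61 in hypoxia alone and -0.21 with BAY alone. With controls 3 and 4 alone 4 had risen. IFIH1, a sensor of double-stranded RNA, had 2.79, 2.99 and 4.12 CPM in hypoxia with BAY, 8.96, 10.6 and 9.17 CPM in hypoxia with solvent, 10.6, 10.8 and 11.1 CPM with BAY in normoxia, and 18.9, 18.2, 18.1, 18.7 and 18.4 CPM in the controls. The combined group lay below all others, at -2.49 ± 0.107 (SE, adjusted p = 8.63e-12). USP18, a brake on interferon signalling, averaged 0.120 ± 0.00424 CPM in hypoxia with BAY (SD, n = 3) against 1.60 ± 0.288 CPM in the controls (SD, n = 5).

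The NF-κB and inflammation list is one where the single exposures differed in direction. Its median was -0.54 in hypoxia with BAY, 0.18 in hypoxia alone and -1.09 with BAY alone, and 17 of 24 genes fell while 4 rose. TNFRSF9, a receptor of the TNF family, had 0.624, 0.582 and 0.894 CPM in hypoxia with BAY and 6.35 to 8.20 CPM in the controls. CCL2, a monocyte-attracting chemokine, had 0.334, 0.271 and 0.243 CPM in hypoxia with BAY and 2.77, 2.81, 3.47, 2.86 and 2.74 CPM in the controls. Neither gene's groups overlapped. LIF, a cytokine of the IL-6 family, rose to 193 CPM in hypoxia with BAY, against 78.7 CPM in hypoxia with solvent, 40.6 CPM with BAY in normoxia and 44.5 CPM in the controls. Of the p53 targets, 17 of 22 fell and 4 rose, at a median of -0.66. AEN, a p53-induced nuclease, fell to 3.08 ± 0.408 CPM in hypoxia with BAY (SD, n = 3), against 17.6 ± 1.91 CPM in the controls (SD, n = 5), while CDKN1A, the best-known target, fell by 0.39 on the log2 scale.

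YAP and TEAD targets did not move as 1 group: 10 of 22 fell, 9 rose, and the median was -0.04. The falls held the genes most used to report YAP activity, ANKRD1, CCN2 and CCN1, the last at 50.4 CPM in hypoxia with BAY, 109 CPM in hypoxia with solvent, 71.8 CPM with BAY in normoxia and 415 CPM in the controls. CCN1 split by control subset as CCN2 did, with 541, 516, 257, 250 and 512 CPM in controls 1 to 5. Among the rises were IGFBP3 and F3, tissue factor, which starts coagulation, at 421 CPM in hypoxia with BAY against 105 CPM in the controls. The interaction was called above 0 for 15 of the 22 genes and below 0 for 2. For ANKRD1 it was 2.30 ± 0.186 (SE, adjusted p = 1.21e-06), the fall being smaller than the sum of both. The core bound by TEAD factors, GGAATG, was read on either strand. It was present in the promoter window of 5 of 17 listed genes with an entry (29.4%), against 11.1% of the tested genes. The share was 9.74% for the genes at least 2-fold higher and 12.5% for those at least 2-fold lower. Here too a match describes the letters only and is no sign of binding. The motif was then looked up gene by gene. Among the 10 largest falls it was present for ANKRD1, CCN2 and UBD and absent for RPS6KL1, EGR1, TIGAR and SDF2L1. The others of the 10 had no entry. It was also absent for IGFBP3, a listed gene that rose. The 250 bases before the start of ANKRD1 and CCN2 are printed because both are listed genes among the 10 largest falls. Capitals mark GGAATG, which begins 220 and 128 bases before the start in ANKRD1 and 169, 104 and 95 bases before it in CCN2. They read 5′ to 3′ on the gene's strand, from chr10:90921088-90921337 (minus) and chr6:131951373-131951622 (minus), RefSeq GRCh38.p14.
ANKRD1: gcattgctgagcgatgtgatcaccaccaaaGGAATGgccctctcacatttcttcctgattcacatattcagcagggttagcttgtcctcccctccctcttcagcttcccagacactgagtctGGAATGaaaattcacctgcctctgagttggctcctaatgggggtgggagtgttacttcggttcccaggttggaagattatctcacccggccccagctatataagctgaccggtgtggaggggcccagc
CCN2: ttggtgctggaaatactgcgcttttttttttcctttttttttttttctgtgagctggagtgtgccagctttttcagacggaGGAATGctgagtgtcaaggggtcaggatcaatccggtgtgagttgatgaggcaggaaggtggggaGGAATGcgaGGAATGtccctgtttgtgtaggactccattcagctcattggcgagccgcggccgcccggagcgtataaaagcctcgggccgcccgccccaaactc

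Of the TGF-β and SMAD targets, 11 of 20 rose and 8 fell, at a median of 0.15. IL11, a profibrotic cytokine of the IL-6 family, had 81.6, 88.6 and 72.6 CPM in hypoxia with BAY, 3.83, 3.87 and 3.76 CPM in hypoxia with solvent, 85.0, 76.8 and 74.9 CPM with BAY in normoxia, and 3.17, 3.04, 2.45, 2.59 and 2.73 CPM in the controls. Both groups with BAY overlapped, far above the others, and the net log2 fold change was 4.85 ± 0.0790 (SE, adjusted p = 4.96e-16). TGFB1, the ligand itself, rose to 575 CPM in hypoxia with BAY, against 449 CPM in hypoxia with solvent, 115 CPM with BAY in normoxia and 119 CPM in the controls, while TGFB2 fell to 40.6 CPM, against 84.4 CPM in the controls. Of 38 matrix genes, 20 rose and 12 fell, at a median of 0.18. The largest rises included LOX and P4HA3, enzymes that process collagen. LOX had 184, 182 and 196 CPM in hypoxia with BAY, against 13.4, 12.6, 10.1, 9.79 and 11.8 CPM in the controls, and the prolyl hydroxylase subunit P4HA3 had 3.22, 3.71 and 3.75 CPM in hypoxia with BAY against 0.365 to 0.514 CPM in the controls. LOX had also been high in hypoxia with solvent (159 ± 6.19 CPM, SD, n = 3). P4HA3 was at 0.799 ± 0.111 CPM there and at 1.62 ± 0.114 CPM with BAY in normoxia (SD, n = 3 each). Among the falls were PLAU, urokinase (173 CPM in hypoxia with BAY against 588 CPM in the controls), and TNC, the matrix protein tenascin C (27.9 CPM in hypoxia with BAY against 103 CPM in the controls). FN1, fibronectin, was not called (5305 CPM in hypoxia with BAY against 5154 CPM in the controls).

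Of the contractile and mesenchymal genes, 9 of 20 rose and 7 fell. Beside SYNPO the rises held VIM, the mesenchymal intermediate filament (1080 CPM in hypoxia with BAY against 426 CPM in the controls). The falls held TPM1, tropomyosin, at 200 CPM in hypoxia with BAY against 539 CPM in the controls. SNAI2, a transcription factor of epithelial-mesenchymal transition, fell to 0.424 ± 0.106 CPM in hypoxia with BAY (SD, n = 3), against 2.05 ± 0.227 CPM in the controls (SD, n = 5). In 12 of the 20 the interaction was called above 0, and in 1 below 0. Of 24 junction genes, 14 fell and 7 rose, at a median of -0.32, beside 35.4% lower and 32.8% higher over all genes. TJP1, the scaffold protein ZO-1, fell to 12.4 ± 1.44 CPM in hypoxia with BAY (SD, n = 3), against 43.0 ± 2.89 CPM in the controls (SD, n = 5). CLDN2, the cation-permeable claudin of the proximal tubule, had 77.6, 88.1 and 55.3 CPM in hypoxia with BAY, 75.1, 77.6 and 60.1 CPM in hypoxia with solvent, 361, 356 and 360 CPM with BAY in normoxia, and 209, 215, 165, 165 and 222 CPM in the controls. The rise of CLDN2 with BAY seen in normoxia was absent from the hypoxic groups, which overlapped, with an interaction of -0.83 ± 0.230 (SE, adjusted p = 0.0311).

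In the CREB and immediate-early list 9 of 24 rose and 7 fell, beside 32.8% higher and 35.4% lower over all genes. With controls 3 and 4 alone 14 of the list rose. NR4A3, an orphan nuclear receptor induced by cyclic AMP, had 6.14, 7.11 and 6.24 CPM in hypoxia with BAY, 0.722, 0.495 and 0.882 CPM in hypoxia with solvent, 2.68, 2.53 and 2.86 CPM with BAY in normoxia, and 0.240 to 0.277 CPM in the controls. All 4 groups were apart, at a net log2 fold change of 4.65 ± 0.150 (SE, adjusted p = 3.71e-13). FOSL2, an AP-1 subunit, rose to 974 CPM in hypoxia with BAY, against 110 CPM in the controls. Of the cyclic GMP and cyclic AMP pathway, 10 of 28 rose and 14 fell, beside the same shares over all genes. PDE3A, which cyclic GMP inhibits, averaged 6.20 ± 0.416 CPM in hypoxia with BAY, 1.05 ± 0.191 CPM in hypoxia with solvent and 7.43 ± 0.349 CPM with BAY in normoxia (SD, n = 3 each), and 1.05 ± 0.259 CPM in the controls (SD, n = 5). The cyclic GMP-specific PDE5A fell to 1.10 CPM in hypoxia with BAY, against 3.10 CPM in the controls. PRKG1, the protein kinase G gene, fell to 0.312 CPM in hypoxia with BAY, against 0.541 CPM in the controls. Of the subunits of soluble guanylate cyclase itself, GUCY1B1 rose by 0.42 on the log2 scale, to 99.1 CPM in hypoxia with BAY against 74.3 CPM in the controls. GUCY1A1 fell by 0.40 on the log2 scale, to 25.0 CPM in hypoxia with BAY against 32.9 CPM in the controls.

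Of 22 NRF2 targets, which protect against oxidants, 11 fell and 6 rose. NQO1, a quinone reductase, averaged 27.9 ± 2.38 CPM in hypoxia with BAY, 25.8 ± 0.383 CPM in hypoxia with solvent and 106 ± 3.20 CPM with BAY in normoxia (SD, n = 3 each), and 72.5 ± 10.7 CPM in the controls (SD, n = 5). SLC7A11, the cystine importer, fell to 1.26 ± 0.248 CPM in hypoxia with BAY (SD, n = 3), against 8.71 ± 0.635 CPM in the controls (SD, n = 5). Of the insulin-like growth factor axis, 11 of 14 genes rose and 1 fell. IGFBP1, the liver-type binding protein, had 4.38, 5.04 and 5.52 CPM in hypoxia with BAY and 0.0655 to 0.282 CPM in the controls. PAPPA, the protease that cleaves binding proteins, rose to 624 CPM in hypoxia with BAY, against 90.1 CPM in hypoxia with solvent, 533 CPM with BAY in normoxia and 101 CPM in the controls.

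Genes returned to control level were looked for among those that hypoxia alone changed at least 2-fold. A gene was counted when BAY in hypoxia moved it back at least 1.5-fold with a call, and the 95% interval of its net log2 fold change lay within 1.5-fold of the controls. These are selections on the same values, so counts and levels are a description without a test. Of 503 named genes at 5 CPM or more in any group that had risen in hypoxia, 10 met the rule (1.99%), and 7 of 506 that had fallen (1.38%). The interval may still lie to one side of 0: G0S2, ITGA3, EML2, BIRC3, TNFAIP3, LIMS2, RASA4, RRM2 and SDSL kept a called net difference, the largest being -0.46 for BIRC3 (adjusted p = 7.83e-07).

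SOX9, a transcription factor of tubular injury and repair, had 28.5, 31.5 and 33.7 CPM in hypoxia with BAY, 72.4, 70.2 and 78.7 CPM in hypoxia with solvent, 20.3, 19.6 and 19.9 CPM with BAY in normoxia, and 30.6, 31.6, 33.6, 33.6 and 31.7 CPM in the controls. The combined group overlapped the controls, with a net log2 fold change of -0.04 (95% interval -0.16 to 0.07). G0S2, an inhibitor of the main triglyceride lipase, had 36.1, 38.1 and 38.3 CPM in hypoxia with BAY, 93.9 ± 4.18 CPM in hypoxia with solvent, 21.4 ± 1.65 CPM with BAY in normoxia (SD, n = 3 each), and 30.4 ± 0.932 CPM in the controls (SD, n = 5). It stayed 1.23-fold above them. ITGA3, the laminin-binding integrin subunit, averaged 593 ± 37.2 CPM in hypoxia with BAY, 1084 ± 4.27 CPM in hypoxia with solvent and 230 ± 1.66 CPM with BAY in normoxia (SD, n = 3 each), and 480 ± 34.9 CPM in the controls (SD, n = 5). Here each exposure alone had moved the gene at least 2-fold, in opposite directions. The same held for GALNT18, a mucin-type glycosyltransferase, at 1.97, 1.95 and 2.49 CPM in hypoxia with BAY and 1.69 to 2.21 CPM in the controls. BIRC3 and TNFAIP3, which encode a ubiquitin ligase and a deubiquitinase of NF-κB signalling, also belonged to both sets. BIRC3 averaged 48.9 CPM in hypoxia with BAY, 135 CPM in hypoxia with solvent, 25.1 CPM with BAY in normoxia and 67.3 CPM in the controls, while TNFAIP3 averaged 20.6 CPM in hypoxia with BAY, 53.2 CPM in hypoxia with solvent, 10.2 CPM with BAY in normoxia and 26.5 CPM in the controls. P2RY11, a nucleotide receptor, and EML2, a microtubule-binding protein, averaged 5.00 ± 0.546 and 9.77 ± 0.873 CPM in hypoxia with BAY (SD, n = 3), against 5.23 ± 0.194 and 7.81 ± 0.419 CPM in the controls (SD, n = 5). P2RY11 shares exons with PPAN and EIF3G and is uncertain. LIMS2 and RASA4 complete the 10.

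On the side of the falls, NR4A2, an orphan nuclear receptor related to NR4A3, had 1.83, 2.48 and 2.31 CPM in hypoxia with BAY, 0.796, 0.802 and 0.713 CPM in hypoxia with solvent, 4.75, 5.41 and 5.35 CPM with BAY in normoxia, and 2.09, 2.18, 2.43, 2.28 and 2.06 CPM in the controls. The combined group spanned the controls, at a net log2 fold change of 0.00 (95% interval -0.24 to 0.24). RRM2, a subunit of ribonucleotide reductase, had 234, 273 and 202 CPM in hypoxia with BAY, 78.2, 82.0 and 80.7 CPM in hypoxia with solvent, 757, 729 and 746 CPM with BAY in normoxia, and 191, 189, 176, 167 and 204 CPM in the controls. It overlapped the controls by 1 library and kept a called net difference of 0.35 (adjusted p = 0.00101). SLC45A4, a proton-associated transporter, averaged 15.2 ± 1.33 CPM in hypoxia with BAY and 5.76 ± 0.550 CPM in hypoxia with solvent (SD, n = 3 each), and 14.7 ± 0.932 CPM in the controls (SD, n = 5). VASH2, a tubulin carboxypeptidase, averaged 14.1 ± 1.60 CPM in hypoxia with BAY and 5.50 ± 0.387 CPM in hypoxia with solvent (SD, n = 3 each), and 12.7 ± 0.934 CPM in the controls (SD, n = 5). TCF19 had 16.5 ± 2.65 CPM in hypoxia with BAY (SD, n = 3) and 18.3 ± 1.83 CPM in the controls (SD, n = 5), and its exons overlap POU5F1. SDSL, a serine dehydratase-like enzyme, had the least complete return, with 9.65, 9.65 and 13.0 CPM in hypoxia with BAY, below 13.4 to 14.8 CPM in the controls. TMCC3 was the seventh.

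The mirror rule took genes that BAY alone had changed at least 2-fold and that stood near the control level once hypoxia was added. It held for 20 of 181 genes raised by BAY (11.0%) and 28 of 199 lowered by it (14.1%). Of the 10 genes returned after a rise in hypoxia, 4 were also among those returned after a fall with BAY (ITGA3, BIRC3, GALNT18 and TNFAIP3), and of the 7 returned after a fall in hypoxia, 2 were also among those returned after a rise with BAY (NR4A2 and RRM2). With controls 1, 2 and 5 alone, 43 genes rather than 28 met the rule after a fall with BAY.

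CXCL8, the neutrophil-attracting chemokine interleukin-8, had 80.9, 83.2 and 77.1 CPM in hypoxia with BAY, 99.3, 103 and 102 CPM in hypoxia with solvent, 24.3, 21.9 and 24.4 CPM with BAY in normoxia, and 98.1, 91.0, 83.5, 87.1 and 97.0 CPM in the controls. The fall with BAY was far smaller in hypoxia than in normoxia, and the combined group lay just below the controls. That net difference of CXCL8 was called with all 5 controls and was -0.03 (adjusted p = 0.607) with controls 3 and 4 alone. FOSL1, an AP-1 subunit, had 12.2, 14.9 and 17.4 CPM in hypoxia with BAY, 31.5 ± 5.23 CPM in hypoxia with solvent and 2.99 ± 0.212 CPM with BAY in normoxia (SD, n = 3 each), and 18.5, 18.3, 15.0, 13.6 and 19.4 CPM in the controls. It overlapped the controls, with a net change of -0.20 that was -0.32 with controls 1, 2 and 5 alone and 0.10 with controls 3 and 4 alone. SHISA9 averaged 10.3 ± 0.725 CPM in hypoxia with BAY, 19.6 ± 1.95 CPM in hypoxia with solvent and 3.53 ± 0.180 CPM with BAY in normoxia (SD, n = 3 each), and 13.1 ± 0.693 CPM in the controls (SD, n = 5). It kept a called net difference of -0.35 (adjusted p = 0.000506), which was not called with all 24 libraries in the fit (adjusted p = 0.0622). The transcription factors MYC, RUNX1 and ETS1 were picked after their values were seen. MYC averaged 218 CPM in hypoxia with BAY, 331 CPM in hypoxia with solvent, 103 CPM with BAY in normoxia and 214 CPM in the controls. RUNX1 averaged 54.1 CPM in hypoxia with BAY, 55.9 CPM in hypoxia with solvent, 25.4 CPM with BAY in normoxia and 53.2 CPM in the controls. ETS1 averaged 71.2 CPM in hypoxia with BAY, 122 CPM in hypoxia with solvent, 30.3 CPM with BAY in normoxia and 64.7 CPM in the controls. The log2 change with BAY in hypoxia was -0.60 for MYC and -0.78 for ETS1, but -0.05 for RUNX1.

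Of the genes that BAY alone had raised, DHRS9, a retinol dehydrogenase, had 7.16, 7.87 and 6.04 CPM in hypoxia with BAY, 5.27, 4.40 and 3.69 CPM in hypoxia with solvent, 29.2, 29.1 and 29.3 CPM with BAY in normoxia, and 8.03, 7.45, 5.49, 5.55 and 7.68 CPM in the controls. It overlapped the controls, and its interaction was -1.44. AMACR, a racemase of branched fatty acid oxidation, had 67.3, 68.6 and 55.8 CPM in hypoxia with BAY, 52.8 ± 6.36 CPM in hypoxia with solvent and 177 ± 3.01 CPM with BAY in normoxia (SD, n = 3 each), and 65.4, 61.7, 44.2, 43.9 and 66.4 CPM in the controls. The controls of AMACR and DHRS9 split by subset as well: with controls 3 and 4 alone both had a called net rise, 0.59 (adjusted p = 0.000537) and 0.40 (adjusted p = 0.0174). PKHD1, the gene of recessive polycystic kidney disease, encodes fibrocystin. It averaged 9.29 ± 1.45 CPM in hypoxia with BAY, 5.61 ± 0.442 CPM in hypoxia with solvent and 25.5 ± 2.33 CPM with BAY in normoxia (SD, n = 3 each), and 10.2 ± 0.674 CPM in the controls (SD, n = 5).

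**Figure D4:**
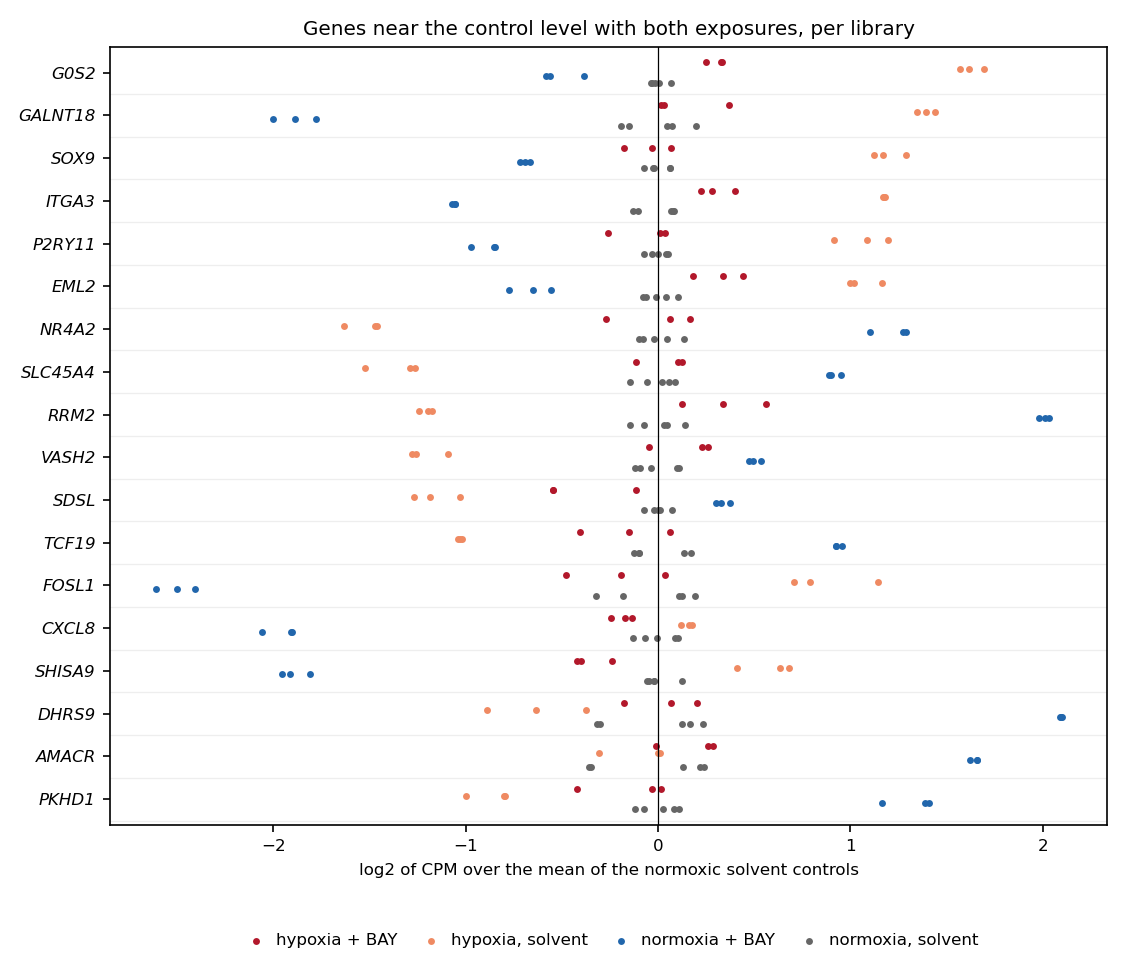
Genes near the control level with both exposures. The horizontal axis is the log2 ratio of a library's CPM to the mean of the 5 normoxic controls, and each point is 1 library of hypoxia with BAY (dark red), hypoxia with solvent (orange), BAY in normoxia (blue) or the controls (grey). From G0S2 to TCF19 the orange points lie at least about 2-fold from 0 with the red points between -0.6 and 0.6; from FOSL1 to PKHD1 the blue points do.

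A further class held genes with a called net change of at least 2-fold, both single changes under 1.5-fold and a called interaction. Single changes below that limit could still be called. Of 795 genes at least 2-fold higher with a name and 5 CPM, 34 met this rule (4.28%), and of 1114 lower, 43 (3.86%). Again the values that chose these genes are given as a description.

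FGFRL1, a decoy-like receptor of fibroblast growth factors, had 430, 434 and 468 CPM in hypoxia with BAY, 143, 142 and 141 CPM in hypoxia with solvent, 149, 147 and 144 CPM with BAY in normoxia, and 101, 99.6, 94.8, 95.9 and 104 CPM in the controls. The combination stood about 3-fold above either exposure alone. EPAS1, which encodes HIF-2α, had 981, 942 and 993 CPM in hypoxia with BAY, 442, 407 and 427 CPM in hypoxia with solvent, 289, 289 and 303 CPM with BAY in normoxia, and 298, 281, 281, 298 and 271 CPM in the controls. BAY alone overlapped the controls, and the combination lay above every other library. RIMKLB, an amino acid ligase that makes N-acetylaspartylglutamate, averaged 237 ± 8.87 CPM in hypoxia with BAY, 62.4 ± 2.15 CPM in hypoxia with solvent and 89.1 ± 5.05 CPM with BAY in normoxia (SD, n = 3 each), and 60.0 ± 1.95 CPM in the controls (SD, n = 5). PTP4A1, a small phosphatase, averaged 526 ± 31.1 CPM in hypoxia with BAY and 198 CPM in each single exposure, against 133 ± 17.2 CPM in the controls (SD, n = 3 and 5). Of the genes outside the naming rule, INHBA, the activin A subunit, was picked after its values were seen, at 18.7 CPM in hypoxia with BAY, 9.10 CPM in hypoxia with solvent, 6.10 CPM with BAY in normoxia and 8.36 CPM in the controls. The integrin subunit ITGB1 was the only one of the 77 genes on a pathway list, at 1631 CPM in hypoxia with BAY, 942 CPM in hypoxia with solvent, 982 CPM with BAY in normoxia and 761 CPM in the controls.

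On the low side, ARRDC4, an arrestin-like protein that limits glucose uptake, had 1.95, 2.21 and 3.50 CPM in hypoxia with BAY, 8.70, 8.13 and 8.87 CPM in hypoxia with solvent, 8.92, 8.92 and 9.62 CPM with BAY in normoxia, and 11.8, 11.7, 13.1, 13.8 and 11.9 CPM in the controls. Its paralogue TXNIP, picked after its values were seen, averaged 160 CPM in hypoxia with BAY, 455 CPM in hypoxia with solvent, 303 CPM with BAY in normoxia and 374 CPM in the controls. SLC27A2, a fatty acid transporter and acyl-CoA synthetase of the proximal tubule, had 2.77, 2.76 and 3.33 CPM in hypoxia with BAY, 5.94, 6.20 and 6.15 CPM in hypoxia with solvent, 9.40, 8.53 and 9.04 CPM with BAY in normoxia, and 9.19, 9.03, 7.30, 7.19 and 9.45 CPM in the controls. The combined group was below every other library for each of these genes whose libraries are given. STAMBPL1, a deubiquitinase, averaged 1.98 ± 0.211 CPM in hypoxia with BAY, 4.26 ± 0.135 CPM in hypoxia with solvent and 4.99 ± 0.524 CPM with BAY in normoxia (SD, n = 3 each), and 5.82 ± 0.455 CPM in the controls (SD, n = 5). WSCD1 averaged 6.97 ± 0.817 CPM in hypoxia with BAY, 14.4 ± 1.48 CPM in hypoxia with solvent and 14.1 ± 0.108 CPM with BAY in normoxia (SD, n = 3 each), and 20.4 ± 2.12 CPM in the controls (SD, n = 5).

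**Figure D5:**
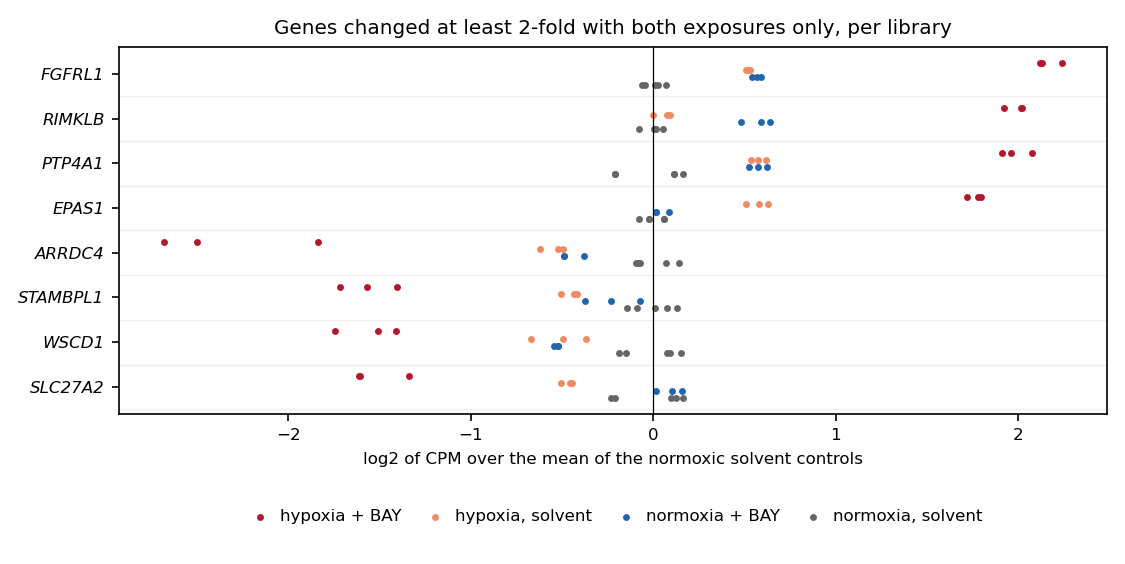
Genes changed at least 2-fold only with both exposures, drawn as log2 ratio of each library's CPM to the mean of the 5 normoxic controls. Hypoxia with BAY (dark red) lies beyond 1.3 in size for all 8 genes, while hypoxia with solvent (orange) and BAY in normoxia (blue) lie within 0.7 of the controls (grey).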

How the data were processed

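RNA was measured by poly(A) RNA-seq of HK-2 cells, with libraries made from 400 ng of total RNA per the labels' protocols. The authors deposited a table of estimated counts per gene for all 24 libraries; the submitters' processing notes name Salmon, DESeq2 and the GRCh38 (hg38) build, without a role for each. Versions, annotation and strand setting: not given in the sources used here. Of the deposited values above 0, 48.6% were not whole, and all were rounded before testing. Symbols were found for 58919 of 65180 gene IDs, and IDs without one held 4.36% of the counts. Gene positions come from GENCODE 29 (GRCh38); the annotation behind the counts may differ.

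The 14 libraries of the 4 groups without TGF-β1 entered 1 fit (edgeR 4.0.16 in R 4.3.3, TMM scaling, filterByExpr, robust quasi-likelihood test, two-sided, Benjamini-Hochberg adjustment over 21316 genes, called at an adjusted p below 0.05). Levels are CPM after TMM scaling. A standard error is the size of the log2 fold change over the square root of F, which is approximate. On simulated counts, 196 of 200 changed genes and 9 of the unchanged ones were called, among 20573 genes. Only those 200 genes were changed there, each by at least 2-fold, and the simulated controls had no subsets. The simulation therefore does not test scaling or calls where 68.2% of genes are called, nor the split of the controls. Tried as alternatives were DESeq2 1.42.0 (its size factors, and its own test), limma 3.58.1 with voom, no filter, other sets of libraries, a replicate block, leaving out each library, and other limits for the gene classes. The control subsets were added as alternatives after seeing the data.

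The members, the gene lists and the classes were chosen with earlier results of these data known. Named genes were the 4 genes IGFBP3, SYNPO, NDRG1 and CACNA1H, the 10 largest called rises and falls that reached 5 CPM in one of the groups without overlap of libraries, the largest changes of each class (6 in each direction after hypoxia, 4 in each direction for BAY and for the combination), and the 2 largest called changes of each list. Further list members are named to show a pathway step or a contrast, after their values were seen. Totals per library are given with the results, and levels well under 1 CPM rest on few counts. The libraries with TGF-β1 entered only the 24-library alternative.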

Additional observations from a re-analysis of the deposited data

Results flagged for a closer look

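In 4 genes 1 normoxic solvent control lay far from the other 4, among 83 named genes looked at in this way; chance gives such a library in about 1 of 20 groups. TRIM27 had 40.9 CPM in control 5, with the others at 2.93 to 8.75 CPM, and its net call was lost without that library. TIGAR had 13.0 CPM in control 5 (others 11.4 to 11.7 CPM), SHISA9 14.3 CPM in control 2 (others 12.6 to 12.9 CPM) and CCL2 3.47 CPM in control 3 (others 2.74 to 2.86 CPM).

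The change with BAY differed between hypoxia and normoxia by the interaction test for 2 of the 4 main genes. It was smaller in hypoxia for IGFBP3, by -1.04 on the log2 scale, and larger in hypoxia for SYNPO, by 0.99.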

How the results depend on the processing

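The net changes of IGFBP3, SYNPO, NDRG1 and CACNA1H kept their direction and call under every alternative run, and the net counts stayed within 1.5 times. The balance of those counts turned: with controls 1, 2 and 5 alone 7413 genes were higher and 7126 lower, with controls 3 and 4 alone 6979 and 6797, and without any 1 of the libraries of BAY in normoxia 50.6% of called genes were higher, against 48.1% with all libraries. Leaving out 1 library at a time gave 13698 to 14691 called genes, 6586 to 7348 higher, 7064 to 7627 lower, 1992 to 2238 at least 2-fold higher and 2510 to 2664 at least 2-fold lower. It gave net changes of 5.42 to 5.62 for IGFBP3, 4.06 to 4.16 for SYNPO, 5.54 to 5.69 for NDRG1 and 5.48 to 5.66 for CACNA1H, and interactions of -1.16 to -0.93, 0.94 to 1.04, -0.23 to -0.08 and -0.26 to -0.08 in the same order of genes. Genes returned after a hypoxic rise numbered 7 to 12, after a hypoxic fall 5 to 8, after a rise with BAY 17 to 22 and after a fall with BAY 23 to 30. Genes changed at least 2-fold only with both exposures numbered 25 to 33 higher and 32 to 47 lower.

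With controls 1, 2 and 5 alone the interaction turned to 0.08 for NDRG1 and 0.04 for CACNA1H, and 43 genes were returned after a fall with BAY. With controls 3 and 4 alone the interactions were -0.51 and -0.48 and both were called. The cause was not tested. Net changes of other named genes also moved, given here with controls 1, 2 and 5 first and controls 3 and 4 second. They were 4.47 and 5.45 for IGFBP1, 2.37 and 2.98 for PDE3A, and -3.26 and -2.60 for CHAC1. For NQO1 they were -1.51 and -1.08, and for CLDN2 -1.53 and -1.11. The class limits moved the counts by construction. With the net interval within 1.3-fold, 3 genes were returned after a hypoxic rise, 9 after a rise with BAY and 15 after a fall with BAY. Within 2-fold they were 23, 36 and 51, and 17 after a hypoxic fall. With single changes under 1.3-fold, the class for both exposures held 6 higher and 7 lower.

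Some genes at control level gained a net call: VASH2 (0.16 with all libraries) by the DESeq2 test (0.18, adjusted p = 0.0287), with DESeq2 size factors (0.18, adjusted p = 0.0367), with controls 1, 2 and 5 (0.25, adjusted p = 0.00912) and in 5 leave-one-out fits, TCF19 without replicate 2 of hypoxia with BAY (-0.27, adjusted p = 0.0141) and with controls 3 and 4 (-0.25, adjusted p = 0.0349), GALNT18 with controls 3 and 4 (0.37, adjusted p = 0.0292) and FOSL1 with controls 1, 2 and 5 (-0.32, adjusted p = 0.0489). The sign changes that follow were not called. NR4A2 (leave-one-out range -0.09 to 0.13) moved to 0.02 (DESeq2 size factors, DESeq2 test), 0.01 (no filter), 0.00 (8 or 24 libraries in the fit), 0.08 (controls 1, 2 and 5) and 0.01 or 0.03 without single libraries. DHRS9 (-0.05 to 0.14) moved to -0.12 (controls 1, 2 and 5) and to -0.03 or -0.05 without control 3, control 4 or replicate 2 of hypoxia with BAY. SOX9 (-0.10 to 0.03) moved to 0.03 without replicate 1 of hypoxia with BAY and 0.02 with controls 1, 2 and 5, P2RY11 (-0.11 to 0.03) to 0.03 without replicate 2 and 0.00 with controls 3 and 4, and FOSL1 to 0.10 with controls 3 and 4. Of the list counts under all alternatives, 1399 stayed within 1.5 times and 27 did not. Among called genes 47.6% to 51.0% were higher over all alternatives.

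Same-numbered libraries of hypoxia with BAY and of the controls showed little correlation of their deviations from the group mean, at -0.04, 0.01 and 0.04. The other groups were not compared in this way, and a batch shared across groups was not tested. With the replicate number as a block, 13837 genes were called net, 6649 higher and 7188 lower, 2013 and 2539 of them at least 2-fold. Depth limits genes near 0 CPM, such as KISS1R, RFLNB and UBD.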

Other observations

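Of 24 proximal tubule markers 19 passed the filter, and 9 rose and 6 fell at a median of 0.05, beside 32.8% higher and 35.4% lower over all genes, with a summed level of 1902 to 2140 CPM in hypoxia with BAY and 1439 to 1658 CPM in the controls. SLC34A1, the sodium-phosphate cotransporter, rose to 7.37 CPM in hypoxia with BAY, against 6.42 CPM in hypoxia with solvent, 6.20 CPM with BAY in normoxia and 2.74 CPM in the controls, less than the sum of both (interaction -0.97, adjusted p = 8.06e-05). MIOX, the renal inositol oxygenase, reached 121 CPM with BAY in normoxia but stood at 60.4 CPM in hypoxia with BAY, 51.0 CPM in hypoxia with solvent and 61.9 CPM in the controls. The interaction was called below 0 for 5 of the 19 markers and above 0 for none.

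Among epithelial and injury genes, 2 of 14 rose and 7 fell, at a median of -0.17. CD24, a surface glycoprotein of regenerating tubule cells, rose to 1343 CPM in hypoxia with BAY, against 484 CPM in the controls, and HAVCR1, the injury marker KIM-1, rose by 0.22 on the log2 scale. PROM1, of the same list, went the other way, with a net log2 fold change of -2.30 (adjusted p = 4.20e-06). Its level was low, at a mean of 0.405 CPM over the 14 libraries. CDH1, E-cadherin, fell to 12.9 CPM in hypoxia with BAY, against 30.3 CPM in the controls, with 13.8 CPM in hypoxia with solvent and 36.4 CPM with BAY in normoxia. STC1, the glycoprotein stanniocalcin, stood at 0.588 CPM in hypoxia with BAY, 0.207 CPM in hypoxia with solvent, 1.85 CPM with BAY in normoxia and 0.0339 CPM in the controls. Its interaction of -4.21 (adjusted p = 8.37e-06) was far below 0, at levels close to the limit of detection. IRS2, an adaptor of the insulin receptor, fell with BAY in normoxia (63.0 CPM, against 97.6 CPM in the controls) and was higher with BAY in hypoxia (426 CPM, against 298 CPM with solvent), with an interaction of 1.15 (adjusted p = 3.63e-05).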
